A study of Mus musculus with 12 samples.

Results

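TRAJ21, TRAJ22 and TRAJ24 are joining (J) segments of the mouse TCRα locus, and the Tcra transcripts that use them were followed in newly developed thymic Treg of wt, Il2° and Il15° mice. A Tcra sequence was included when the assigned J segment was TRAJ21, TRAJ22 or TRAJ24 and its CDR3 was in frame without a stop codon. The CDR3 is the junction of V and J segment, from the conserved cysteine to the conserved phenylalanine, and was read here as amino acids or bases. Counting unique molecular identifiers (UMI), each standing for 1 mRNA molecule, TRAJ21 had 8644 UMIs in 1082 clonotypes, TRAJ22 had 10796 in 970 and TRAJ24 had 1907 in 243. Together these were 21347 of 190549 in-frame UMIs (11.2%) and 2295 of 20615 clonotypes, a clonotype being a V segment, a CDR3 amino acid sequence and a J segment. The 3 segments were among 43 J segments found in the libraries.

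The 12 libraries came from individual mice aged 3 weeks, 4 wt littermates, 4 IL-2-deficient (Il2°) and 4 IL-15-deficient (Il15°), with 100000 cells sorted from each thymus as CD4+CD8−Thy1.1+GFP+. All mice were B6 and carried Rag2-Gfp (GFP under the Rag2 promoter), Foxp3-Thy1a (Thy1.1 under the Foxp3 promoter), a transgenic TCRβ chain (Kaa) and 1 null allele of Tcra. The controls therefore share the fixed β chain and the single functional Tcra allele with the mutants, and the α chain alone tells clonotypes apart. Libraries held 7293 (Il2° replicate 4) to 24811 (wt replicate 1) in-frame UMIs, and wt libraries, at 15427 or more, reached higher than those of either mutant.

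During T cell development a V segment (TRAV) is joined to a J segment (TRAJ) of the same locus, bases are trimmed from both ends, and nontemplated bases may be added, which makes the CDR3 loop. The J segments lie in a row downstream of the V segments, and successive rearrangements on the same allele move to J segments farther from the V cluster. The CDR3 of the α chain contacts the peptide presented by the MHC molecule. IL-2 and IL-15 are cytokines that signal through a shared receptor β chain and γ chain, and both are known to act on developing Treg.

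The germline segments are given first because the results below concern which J segment was used and how much of it remained in the CDR3. They come from GENCODE M21, on the + strand of chromosome 14 (GRCm38), where all 3 are annotated as TR_J_gene. Capitals mark the bases that encode the CDR3, and lower case the remainder of the segment.
TRAJ24: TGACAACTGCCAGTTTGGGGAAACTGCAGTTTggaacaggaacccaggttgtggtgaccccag
TRAJ22: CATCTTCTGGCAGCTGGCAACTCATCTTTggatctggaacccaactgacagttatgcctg
TRAJ21: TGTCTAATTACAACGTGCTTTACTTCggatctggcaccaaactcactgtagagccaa
TRAJ24 (ENSMUSG00000076905.2) lies at chr14:54195638-54195700, TRAJ22 (ENSMUSG00000076907.1) at chr14:54197248-54197307 and TRAJ21 (ENSMUSG00000076908.1) at chr14:54198790-54198846. The whole stretch from the start of TRAJ24 to the end of TRAJ21 is 3209 bases, and TRAJ23 lies between TRAJ24 and TRAJ22. The CDR3 part has 32 bases in TRAJ24, 29 in TRAJ22 and 26 in TRAJ21. The last 12 bases of the CDR3 were those of the germline segment in 99.5% of TRAJ21, 99.8% of TRAJ22 and 99.8% of TRAJ24 UMIs. The end of the CDR3 part was placed where this match was highest. The J segment had been assigned from the same sequence, so the match is no test of the assignment.

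The most frequent clonotypes of each segment show how V and J ends meet. For each, the commonest nucleotide sequence of the CDR3 is given, with capitals for the bases that match the germline J segment without interruption from the 3′ end.
TRAV3D-3 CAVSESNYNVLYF (TRAJ21): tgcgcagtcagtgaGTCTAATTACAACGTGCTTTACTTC
TRAV1 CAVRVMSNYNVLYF (TRAJ21): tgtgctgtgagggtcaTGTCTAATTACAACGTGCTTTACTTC
TRAV6D-5 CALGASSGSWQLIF (TRAJ22): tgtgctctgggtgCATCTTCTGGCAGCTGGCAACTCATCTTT
TRAV4D-3 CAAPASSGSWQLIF (TRAJ22): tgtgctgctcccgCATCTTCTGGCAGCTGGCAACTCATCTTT
TRAV6-5 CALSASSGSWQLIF (TRAJ22): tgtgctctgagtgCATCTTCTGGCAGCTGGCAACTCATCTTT
TRAV4N-3 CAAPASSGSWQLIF (TRAJ22): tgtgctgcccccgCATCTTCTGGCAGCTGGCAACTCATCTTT
TRAV4D-3 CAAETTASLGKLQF (TRAJ24): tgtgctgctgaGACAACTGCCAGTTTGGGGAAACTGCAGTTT
All 4 TRAJ22 sequences keep the 29 bases of the germline CDR3 part. In each of them the first 2 of these bases complete an alanine codon with a g before them, which gives the alanine at residue 5. The leading TRAJ24 sequence has lost 1 base of 32 and the leading TRAJ21 sequence 1 base of 26.

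The share of a segment among in-frame UMIs placed TRAJ22 5th of the 43 J segments (5.70% ± 0.997, SD, n = 12), TRAJ21 9th (4.61% ± 0.621) and TRAJ24 25th (0.977% ± 0.224). TRAJ24 was lowest in Il2°. Its share was 1.08%, 1.11%, 0.927% and 1.08% in the wt libraries, 0.753%, 0.749%, 0.598% and 0.754% in Il2°, and 1.09%, 1.06%, 1.14% and 1.39% in Il15°. All 4 Il2° libraries lay below all wt and all Il15° libraries, while wt and Il15° overlapped. The counts behind them were 55 to 132 UMIs in Il2°, 143 to 267 in wt and 118 to 247 in Il15°, and in Il2° replicate 4, the smallest library, the 95% Wilson interval ran from 0.580% to 0.980%.

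TRAJ22 took 4.66%, 5.61%, 6.97% and 6.92% of the wt libraries, 4.83%, 4.15%, 4.53% and 5.47% of Il2°, and 6.40%, 5.70%, 6.36% and 6.81% of Il15°. The Il15° libraries were all above the Il2° libraries, and the wt libraries spread across both. TRAJ21 took 4.36%, 4.50%, 4.21% and 4.29% of the wt libraries, 4.54%, 5.26%, 5.27% and 5.02% of Il2°, and 3.81%, 5.42%, 5.19% and 3.50% of Il15°. Here the Il2° libraries were above all wt libraries, and Il15° libraries fell on either side of wt.

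**Figure D1:**
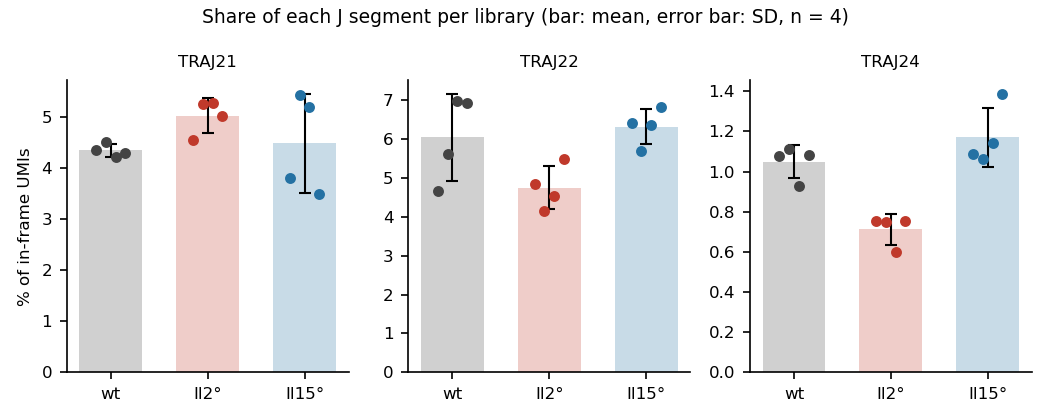
Share of TRAJ21, TRAJ22 and TRAJ24 in each library (y axis, percent of in-frame UMIs), with 1 point per mouse, the bar at the group mean and the error bar at 1 SD (n = 4). TRAJ24 in the Il2° libraries lies between 0.598% and 0.754%, below every wt and Il15° library.

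The test of shares was the quasi-likelihood test of edgeR on UMI counts, with Benjamini-Hochberg adjustment over the 40 J segments that passed a filter on low counts, which all 3 segments did. Il15° against Il2° compares the mutants with each other, and Il2° and Il15° against wt ask what the loss of each cytokine changes. The 3 comparisons share libraries in pairs and are not independent of each other, and p-values measure the spread between mice. In bulk libraries a lower share from fewer cells and one from less Tcra mRNA per cell cannot be told apart.

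Between Il15° and Il2°, TRAJ24 was 1.61-fold higher in Il15° (log2 0.69 ± 0.16, SE, edgeR adjusted p = 0.0218) and TRAJ22 was 1.31-fold higher (log2 0.39 ± 0.11, edgeR adjusted p = 0.0342). They were 2 of the 4 J segments called of 40 tested (10.0%), and the only ones called as higher in Il15° (5.0%). An unadjusted p below 0.05 was found for 6 segments (15%), and the groups did not overlap for 7 (17.5%), TRAJ22 and TRAJ24 among both. TRAJ21 had a log2 difference of -0.19 ± 0.15 (edgeR adjusted p = 0.482). Both calls rest on UMIs: when each clonotype was counted once per library, the log2 difference was 0.10 for TRAJ22 (adjusted p = 0.777) and 0.50 for TRAJ24 (adjusted p = 0.0850). Without Il15° replicate 4 neither was called (edgeR adjusted p = 0.0803 and 0.0684), and TRAJ22 was also not called without Il2° replicate 1 (0.0756) or Il2° replicate 2 (0.135).

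Between Il2° and wt none of the 40 segments was called (0.0%), although 8 had an unadjusted p below 0.05 (20%), all 3 segments here among them. TRAJ24 differed by -0.55 ± 0.17 on the log2 scale (edgeR adjusted p = 0.0537), TRAJ22 by -0.35 ± 0.14 (0.118) and TRAJ21 by 0.22 ± 0.10 (0.224). The groups did not overlap for TRAJ24 and TRAJ21, as for 4 of the 40 segments (10.0%). These outcomes turned on single libraries: without wt replicate 1 TRAJ22 and TRAJ24 were called (edgeR adjusted p = 0.00790 and 0.0443), without Il2° replicate 1 TRAJ21 and TRAJ24 (0.0411 for both), and without Il2° replicate 4 TRAJ22 (0.0143). Between Il15° and wt the log2 differences were 0.22 ± 0.17 for TRAJ24, 0.13 ± 0.13 for TRAJ22 and 0.10 ± 0.12 for TRAJ21, with edgeR adjusted p from 0.615 to 0.732. The 2 segments called there (5.0%) were TRAJ32 and TRAJ52. The 3 with an unadjusted p below 0.05 (7.5%) and the 3 without overlap (7.5%) were likewise other segments. The log2 difference was -0.05 for TRAJ22 without wt replicate 1 and -0.01 for TRAJ21 without Il15° replicate 3.

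None of 5 neighbouring J segments was called between Il15° and Il2°. TRAJ23, which lies between them, had 6.37% of wt, 6.18% of Il2° and 6.65% of Il15° UMIs, with a log2 difference of 0.08 between the mutants (edgeR adjusted p = 0.691). For TRAJ26 and TRAJ27 on the side of TRAJ24 the log2 differences were 0.16 and -0.07, and for TRAJ18 and TRAJ17 on the side of TRAJ21 they were -0.16 and -0.04, with edgeR adjusted p of 0.358 or more. The difference between neighbouring segments was itself not tested.

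**Figure D2:**
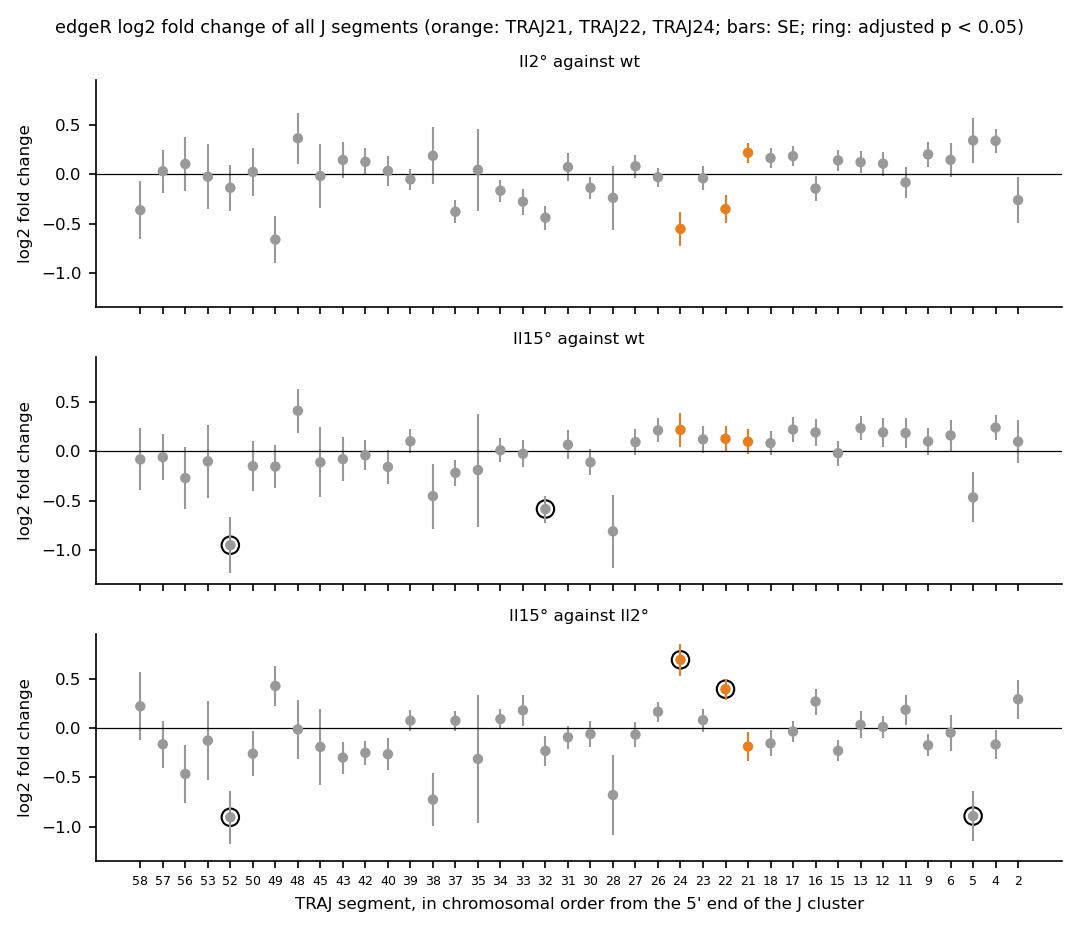
edgeR log2 fold change (y axis) of each tested J segment in chromosomal order (x axis), in 1 panel per comparison, with TRAJ21, TRAJ22 and TRAJ24 in orange, error bars of 1 SE and a ring at adjusted p below 0.05. In Il15° against Il2° the rings above 0 are TRAJ24 at 0.69 and TRAJ22 at 0.39, and TRAJ23 between them is at 0.08.

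The segments differed in their TRAV partners in all genotypes. Mouse TRAV genes occur in near-identical copies (names with D or N), so the copy is uncertain. Values with copies merged are given for some of the partners. TRAJ21 was joined to 82 V names, TRAJ22 to 75 and TRAJ24 to 54. The effective number of merged V segments, the exponential of the Shannon entropy of their shares, averaged 19.5 in wt, 21.2 in Il2° and 18.4 in Il15° for TRAJ21. It was 10.0, 12.1 and 9.22 for TRAJ22 and 6.56, 6.74 and 6.09 for TRAJ24, the segment with fewest UMIs. The partners below were chosen for their high share within a segment, so their values are descriptions.

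For TRAJ22, TRAV6D-5 took 12.6% ± 3.06 (SD, n = 12 libraries) of the UMIs against 0.766% ± 0.173 among all other J segments, and TRAV6-5 took 11.03% ± 3.31 against 1.22% ± 0.333. Both were higher with TRAJ22 in 12 of 12 libraries, and merged they made 23.8% of TRAJ22 (14.9% to 31.3%). TRAV4D-3, at 14.7% ± 1.85, was not over-represented, with 16.4% among other segments. TRAV4N-3 had 10.2% against 7.88% and TRAV12N-3 had 9.89% against 5.28%.

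For TRAJ24, TRAV4D-3 took 30.3% ± 14.2 against 16.1% ± 3.11 elsewhere, and with TRAV4N-3 (15.3% against 7.94%) the merged TRAV4-3 made 45.6% of the segment, from 27.1% to 67.3% of a library's TRAJ24 UMIs. TRAV12N-3 had 13.2% against 5.44%, TRAV4D-4 had 5.65% against 6.71% and TRAV6-4 had 4.25% against 0.580%. For TRAJ21, TRAV3D-3 took 14.8% ± 5.73 against 2.29% ± 0.381, and TRAV1 took 6.79% ± 3.41 against 0.514% ± 0.214, each higher in 12 of 12 libraries. TRAV14-1 had 5.49% against 2.32%, while TRAV4D-4 (7.16% against 6.67%) and TRAV12N-3 (5.30% against 5.53%) were close to their level elsewhere. With copies merged, TRAV3-3 made 15.3% of TRAJ21 and TRAV4-3, split over its copies, made 7.52%.

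**Figure D3:**
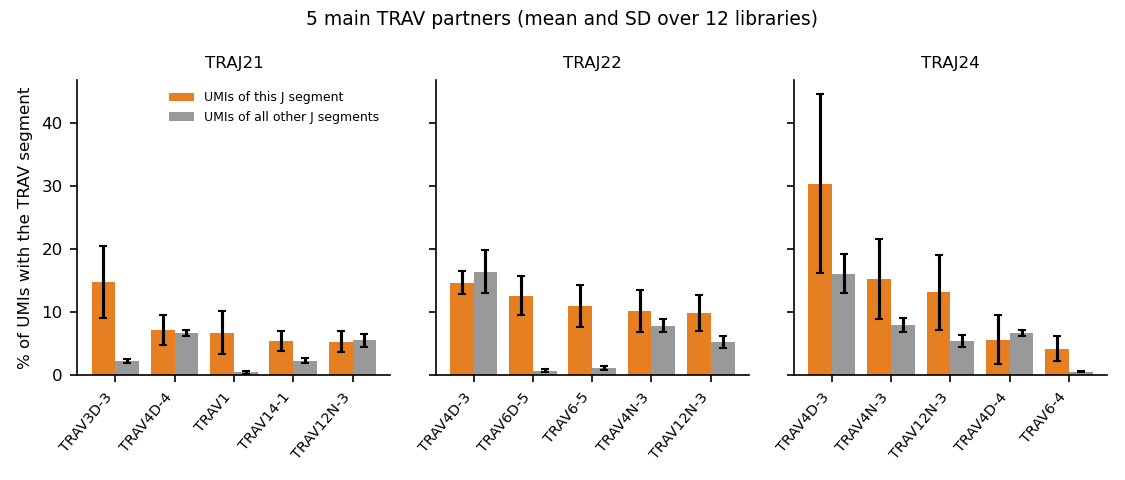
The 5 most frequent TRAV partners of each segment (x axis) as percent of the UMIs of that segment (orange) and of all other J segments (grey), with mean and SD over 12 libraries (y axis). TRAV6D-5 and TRAV6-5 stand out for TRAJ22 at 12.6% and 11.03%, and TRAV3D-3 and TRAV1 for TRAJ21 at 14.8% and 6.79%.

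The V-J pairs were tested across all pairs in the same way. How many of all pairs or clonotypes had groups without overlap was not counted. A lack of overlap for a single pair or clonotype below is therefore a description. Of 50 tested pairs of the 3 segments in Il15° against Il2° none was called by edgeR, as for all 471 tested (0.0%), and 12 had an unadjusted p below 0.05 (7 higher and 5 lower in Il15°) against 53 of all pairs (11.3%). DESeq2 called 2 of the pairs of these segments there, and edgeR called 3 without Il15° replicate 2. In Il2° against wt 0 of 55 were called (0.388% of all 515) and 9 had an unadjusted p below 0.05 (10.9% of all), with 1 called by DESeq2. In Il15° against wt 0 of 60 were called (0.0% of all 528) and 3 had an unadjusted p below 0.05 (5.68% of all), with 1 called by DESeq2. Only 6 TRAJ24 pairs passed the filter on low counts between Il15° and Il2°, some of them through their Il15° libraries, so no direction was read from their number.

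The pair of TRAV6-5 and TRAJ22 was called by edgeR between the mutants when V copies were merged. With copies merged, TRAV6-5 TRAJ22 made up 1.09%, 1.30%, 1.78% and 1.80% of the wt libraries, 0.942%, 0.618%, 0.790% and 1.23% of Il2°, and 1.93%, 1.21%, 1.99% and 2.10% of Il15°. The Il15° libraries were above the Il2° libraries except for Il15° replicate 2, which was just below Il2° replicate 4. The log2 difference between the mutants was 1.10 ± 0.27 (edgeR adjusted p = 0.0300), and by single names it was 1.14 ± 0.31 for TRAV6-5 (0.182) and 0.86 ± 0.32 for TRAV6D-5 (0.261). As a part of TRAJ22, merged TRAV6-5 was lowest in Il2° (18.6%), with 24.6% in wt and 28.4% in Il15°. The remainder of TRAJ22 was 4.54% ± 0.765 of wt, 3.85% ± 0.298 of Il2° and 4.51% ± 0.139 of Il15° libraries, with Il15° (4.37% to 4.70%) above Il2° (3.53% to 4.24%) there too.

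TRAV1 TRAJ21 went the other way between the mutants. It had 0.274%, 0.332%, 0.201% and 0.186% of the wt UMIs, 0.306%, 0.511%, 0.611% and 0.658% in Il2° and 0.110%, 0.222%, 0.116% and 0.292% in Il15°. Every Il2° library was above every Il15° library, with a log2 difference of -1.52 ± 0.38 for Il15° against Il2° (edgeR adjusted p = 0.168, with DESeq2 0.0226), and of 1.13 ± 0.32 for Il2° against wt (edgeR adjusted p = 0.292, with DESeq2 0.0459). TRAV1 is also the V segment of mucosal-associated invariant T cells, which pair it with TRAJ33. TRAV1 with TRAJ33 was 0.0324% to 0.122% of wt, 0.0412% to 0.247% of Il2° and 0% to 0.0290% of Il15° libraries. These UMIs carry another J segment and are not among those of TRAV1 TRAJ21, and a relation between the pairs was not tested. The invariant NKT chain, TRAV11 or TRAV11D with TRAJ18, was at 0.00561% to 0.115% of any library, and no marker gene of Treg can be read from Tcra libraries.

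For TRAJ24, TRAV6-4 had a mean of 0.0536% ± 0.0133 in wt, 0.0159% ± 0.0142 in Il2° and 0.0640% ± 0.0106 in Il15°, and Il2° did not overlap with either group. The log2 differences were -1.69 for Il2° against wt (edgeR adjusted p = 0.498) and 1.99 for Il15° against Il2° (0.448). The Il2° counts of this pair were only 1, 5, 0 and 2 UMIs. It passed the filter on low counts through the wt or Il15° libraries, so its values are a description. TRAV4N-3 TRAJ24 was 0.0853% ± 0.0374 in Il2° and 0.227% ± 0.0683 in Il15°, also without overlap (log2 1.36, edgeR adjusted p = 0.261). Merged TRAV4-3 averaged 0.501% of wt, 0.300% of Il2° and 0.553% of Il15° libraries, and the remainder of TRAJ24 averaged 0.548%, 0.414% and 0.617%. Both means were lowest in Il2°, but the groups overlapped in both portions. TRAV4-3 ran from 0.395% to 0.569% in wt, 0.216% to 0.507% in Il2° and 0.309% to 0.690% in Il15°. The remainder ran from 0.515% to 0.629%, 0.247% to 0.533% and 0.458% to 0.832% in that order. TRAV12N-3 TRAJ21 was lower in all Il2° (0.137% to 0.196%) than in all wt libraries (0.259% to 0.343%), with a log2 difference of -0.70 (edgeR adjusted p = 0.422).

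Clonotypes passing the same filter of 5 UMIs in 4 or more of 8 libraries were tested singly. None of the 48 tested in Il15° against Il2° was called by edgeR (0.0% of 352), with 6 at an unadjusted p below 0.05 (9.38% of all), and DESeq2 called 3. None of 58 was called in Il2° against wt (0.0% of 452), with 10 at an unadjusted p below 0.05 (10.4% of all), and none of 64 in Il15° against wt (0.0% of 466), with 2 (4.08% of all). DESeq2 called 1 in each of these. Of the clonotypes that passed the filter between Il15° and Il2°, 28 were of TRAJ22, 16 of TRAJ21 and 4 of TRAJ24.

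TRAV6-5 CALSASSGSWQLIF with TRAJ22 (490 UMIs in 6 nucleotide sequences) had 0.161%, 0.218%, 0.233% and 0.257% of the wt libraries, 0.149%, 0.0624%, 0.0756% and 0.192% in Il2°, and 0.533%, 0.245%, 0.600% and 0.449% in Il15°. All Il15° libraries were above all Il2° libraries. The log2 difference was 2.05 ± 0.45 with an edgeR adjusted p of 0.0518, the smallest over all 352 clonotypes tested. It was 1.98 ± 0.45 in the fit with V copies merged (edgeR adjusted p = 0.0228). Merging left the shares of this clonotype unchanged, so only the other features of that fit differed. Without Il15° replicate 2, the lowest Il15° library, the clonotype was called as well (log2 2.20, edgeR adjusted p = 0.0285). Against wt the log2 difference of Il15° was 1.04 (edgeR adjusted p = 0.966).

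TRAV6D-5 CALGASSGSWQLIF, the most frequent TRAJ22 clonotype (706 UMIs), had 0.302%, 0.411%, 0.519% and 0.557% in wt, 0.102%, 0.136%, 0.282% and 0.411% in Il2°, and 0.400%, 0.283%, 0.445% and 0.584% in Il15°. The ranges of the mutants met, and the log2 difference between them was 0.98 ± 0.44 (edgeR adjusted p = 0.477). It differs from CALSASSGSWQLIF by 1 residue. The CDR3 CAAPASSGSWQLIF occurred under 3 V names, and merged over the TRAV4-3 copies it had 0.580% ± 0.254 of wt, 0.290% ± 0.107 of Il2° and 0.647% ± 0.189 of Il15° UMIs (log2 1.18 ± 0.38 for Il15° against Il2°, edgeR adjusted p = 0.182). Under the name TRAV4D-3 it had only 3 UMIs in Il15° replicate 2 (0.0229%), where the TRAV4N-3 copy had 45 (0.344%).

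The leading TRAJ21 clonotype, TRAV3D-3 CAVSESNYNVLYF (848 UMIs, 8th of all clonotypes), had 0.302%, 0.293%, 0.616% and 0.527% in wt, 0.275%, 0.545%, 0.275% and 0.165% in Il2° and 0.498%, 0.558%, 1.25% and 0.292% in Il15°. The groups overlapped. TRAV3D-3 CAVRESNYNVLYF, which differs from it at 1 residue, had 0.0659% to 0.117% in wt, 0.178% to 0.295% in Il2° and 0.0898% to 0.203% in Il15°. Il2° was above wt in every library (log2 1.32 ± 0.44, edgeR adjusted p = 0.315, with DESeq2 log2 1.41 and adjusted p = 0.0300).

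TRAV1 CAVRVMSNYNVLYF with TRAJ21 (411 UMIs in 7 nucleotide sequences) had 0.181%, 0.306%, 0.143% and 0.0659% in wt, 0.204%, 0.397%, 0.481% and 0.384% in Il2° and 0.0637%, 0.138%, 0.0387% and 0.202% in Il15°. The lowest Il2° library was just above the highest Il15° library (log2 -1.68 ± 0.50 for Il15° against Il2°, edgeR adjusted p = 0.254). It made up most of the TRAV1 TRAJ21 UMIs described above.

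The leading TRAJ24 clonotypes had fewer UMIs than those of TRAJ21 and TRAJ22. The largest, TRAV4D-3 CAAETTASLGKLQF (235 UMIs, 84th of all), had 0.226%, 0.140%, 0.104% and 0% in wt, 0.0706%, 0.0340%, 0.0756% and 0.206% in Il2° and 0.185%, 0.122%, 0% and 0.236% in Il15°. Merged over the TRAV4-3 copies it was in all 12 libraries, with 0.0778% to 0.226% in wt, 0.0340% to 0.206% in Il2° and 0.0580% to 0.236% in Il15°. Mice of 1 genotype differed as much as the genotypes. TRAV6D-7 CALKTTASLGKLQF was not seen among 79831 in-frame wt UMIs, which allows a share of up to 0.00376%, and had 7, 13, 6 and 5 UMIs in the Il15° libraries, together 31 of 58501 (0.0530%). The Il2° libraries had 0, 1, 9 and 0 UMIs. It passed the filter through the Il15° libraries alone and was picked for its small p, so its counts are given as a description. Floors and intervals cover counting error only.

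**Figure D4:**
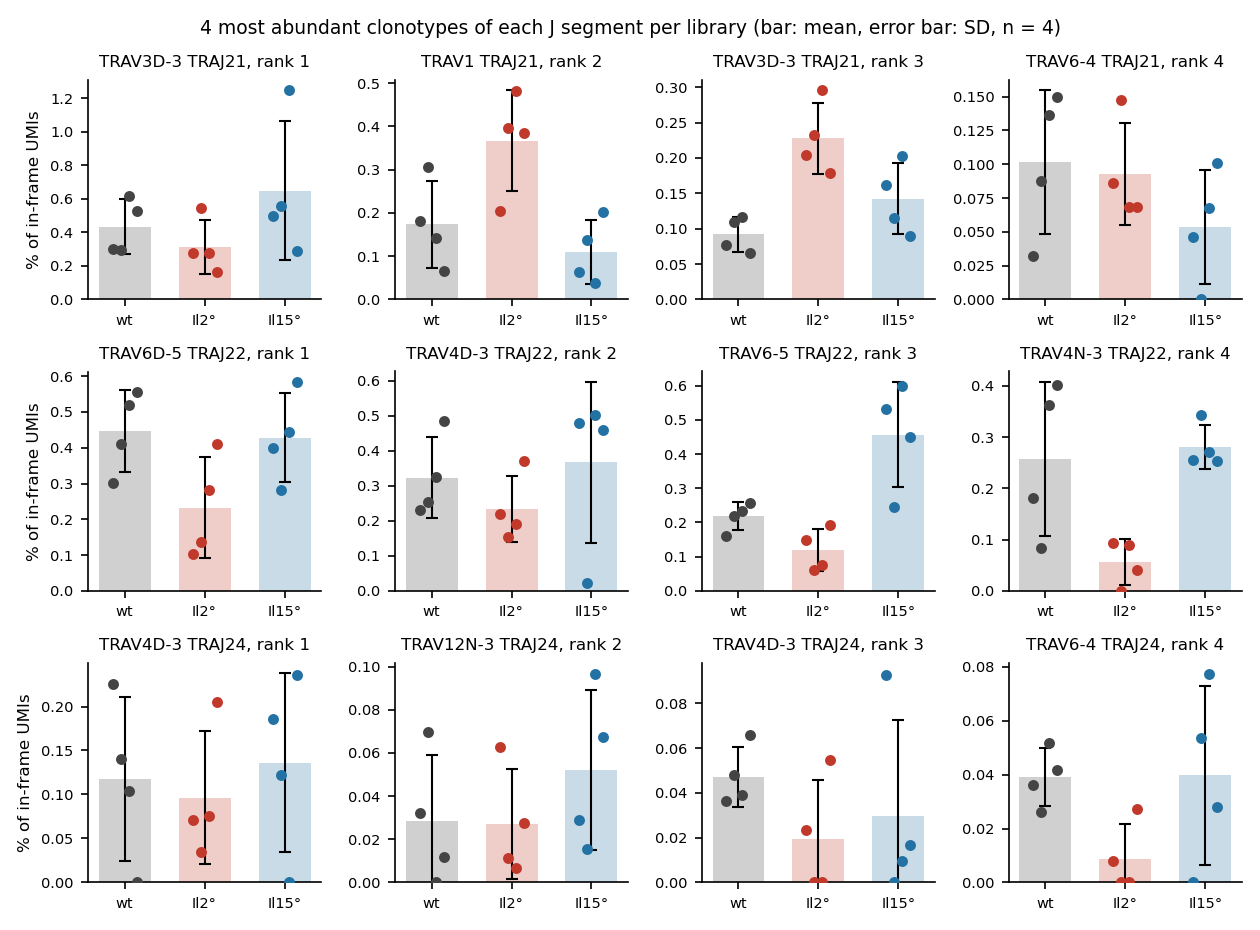
The 4 most frequent clonotypes of each segment (panels) in each library (points), as percent of in-frame UMIs (y axis), by genotype. TRAV6-5 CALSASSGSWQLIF lies between 0.245% and 0.600% in Il15° and between 0.0624% and 0.192% in Il2°.

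The CDR3 of the 3 segments also differed in length and in how much of the J segment remained. Over the 34 J segments with at least 20 in-frame UMIs in every library, mean CDR3 length per library, weighted by UMIs, was 13.9 amino acids for TRAJ24 (4th longest), 13.6 for TRAJ22 (11th) and 12.8 for TRAJ21 (26th), against a median of 13.2. The commonest length was 14 residues for TRAJ24 (67.5% of UMIs) and TRAJ22 (57.7%) and 13 residues for TRAJ21 (41.8%). In TRAJ22 the mean was 13.46 ± 0.0633 in Il2° and 13.64 ± 0.0511 in Il15° without overlap (exact 2-sided Mann-Whitney test, p = 0.0286, the smallest p that 4 against 4 allow, adjusted 0.162, with 17.6% of segments not overlapping).

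The J bases kept are the bases that match the germline segment without interruption from the 3′ end of the CDR3. Their mean was 29.0 of 32 for TRAJ24, 27.4 of 29 for TRAJ22 and 23.8 of 26 for TRAJ21. In TRAJ22 they were 27.48, 27.40, 27.41 and 27.41 in wt, 27.15, 26.76, 27.12 and 27.35 in Il2° and 27.88, 27.49, 27.91 and 27.78 in Il15°. The 3 genotypes did not overlap, in the order Il2°, wt, Il15°. The exact p was 0.0286 in each comparison, with an adjusted p of 0.121 for Il2° against wt (23.5% of segments not overlapping), 0.324 for Il15° against wt (8.82%) and 0.194 for Il15° against Il2° (14.7%). With each clonotype counted once, at the longest match among its nucleotide sequences, the difference between Il2° and wt was 0.000182 bases. That between Il15° and Il2° was 0.415 with groups that overlapped. This setting changes the measure as well as the weight of abundant clonotypes.

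The mean share of TRAJ22 sequences that kept all 29 bases was also lowest in Il2° and highest in Il15°, with wt and Il15° overlapping. Of the TRAJ22 UMIs they made up 50.4% (46.6% to 52.8%) in wt, 53.1% (47.4% to 58.2%) in Il15° and 36.5% (26.4% to 44.4%) in Il2°, and the commonest sequence of each of the 4 leading clonotypes is among them (27.4% to 78.8% of the UMIs of its clonotype). TRAJ21 kept 24.00 ± 0.114 bases in Il2° and 23.79 ± 0.109 in wt without overlap (exact p = 0.0286, adjusted 0.121), and with each clonotype counted once in the same way the difference was 0.000239. TRAJ24 had overlapping groups in all comparisons, at 28.85 ± 0.369 in wt, 28.99 ± 0.475 in Il2° and 29.12 ± 0.474 in Il15°.

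**Figure D5:**
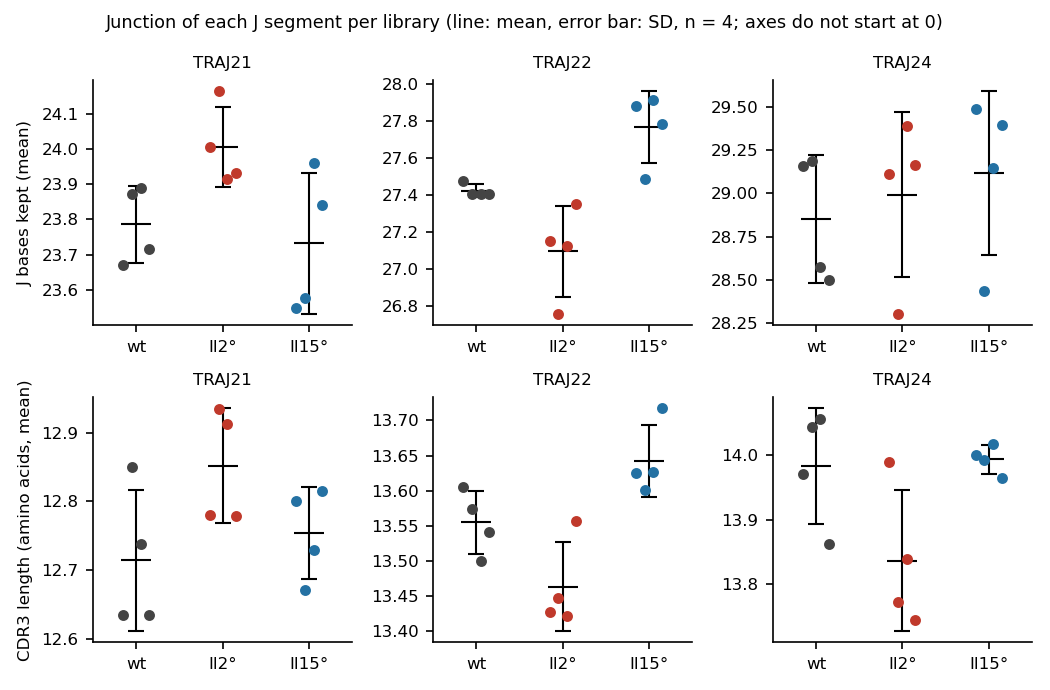
J bases kept and CDR3 length per library (y axes, bases and amino acids, not starting at 0), with 1 point per mouse for each segment and genotype. For TRAJ22 the bases kept run from 26.76 to 27.35 in Il2°, 27.40 to 27.48 in wt and 27.49 to 27.91 in Il15°.

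Residues were counted from the first cysteine, numbered 1, in CDR3 of the commonest lengths. In TRAJ22 CDR3 of 14 residues, alanine at residue 5, at the junction, was found in 56.8%, 52.3%, 62.9% and 64.4% of the UMIs of the wt libraries, 43.2%, 33.2%, 38.8% and 47.3% in Il2° and 58.8%, 42.6%, 68.1% and 61.0% in Il15°. All Il2° libraries were below all wt libraries, and Il15° replicate 2 was within the range of Il2°. Serine at residue 4 had means of 39.7% in Il2°, 34.6% in Il15° and 26.0% in wt. Residue 3, given by the V segment, was leucine in 52.1% and alanine in 37.3%.

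In TRAJ21 CDR3 of 13 residues, residue 5 was glutamate in 35.8%, methionine in 20.04% and proline in 15.6%, and residue 6 was the germline serine in 85.8%. In those of 14 residues, methionine at residue 6 had means of 32.4% ± 6.33 (SD) in Il15°, 50.2% ± 8.95 in wt and 52.1% ± 2.38 in Il2°. Arginine at residue 4 had 44.3% ± 10.9, 34.1% ± 10.4 and 52.4% ± 7.62 in that order. TRAV1 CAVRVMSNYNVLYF, described above, carries both residues, so these values in part count that clonotype again. In TRAJ24 CDR3 of 14 residues, residue 4 was glutamate in 50.7%, residue 5 was threonine in 55.4% and alanine in 15.7%, and residue 6 was threonine in 81.2%. Residues were described without a test.

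A CDR3 centre was called hydrophobic when residue 6 or 7 was C, F, I, L, M, V, W or Y. The same residues were read at every CDR3 length, so in short CDR3 they are residues of the germline J segment. In TRAJ21 CDR3 of 12 residues (18.7% of UMIs), residue 7 is the tyrosine of the J segment. TRAJ21 had such a centre in 51.6% of UMIs, the 3rd highest of 34 segments, TRAJ22 in 8.08% and TRAJ24 in 3.78%, against a median of 9.35%. The TRAJ22 values were 11.01% ± 1.53 in Il2°, 8.08% ± 1.27 in wt and 5.17% ± 2.26 in Il15°. TRAJ22 CDR3 of 11 residues, where residue 7 is the tryptophan of the J segment, had means of 7.57%, 6.08% and 3.46% in that order. The values therefore also carry CDR3 length, and a difference at the junction itself was not tested. Il2° did not overlap with wt (exact p = 0.0286, adjusted 0.324, 8.82% of segments) or with Il15° (exact p = 0.0286, adjusted 0.486, 5.88% of segments), and with each clonotype counted once both groups overlapped. TRAV segments near the J cluster were counted as TRAV16 to TRAV21 under names without D or N. They averaged 1.30% for TRAJ21, 0.244% for TRAJ22 and 0.747% for TRAJ24, and no genotypes were apart (0.0% to 5.88% of segments were). Copies such as TRAV16N were left out, of which TRAV16N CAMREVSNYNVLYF alone had 117 TRAJ21 UMIs.

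Public clonotypes, present in all 4 libraries of a genotype, numbered 28 in wt, 26 in Il2° and 20 in Il15° for TRAJ21, 41, 27 and 27 for TRAJ22, and 5, 2 and 5 for TRAJ24. As a share of the clonotypes found in the genotype, the 3 segments together had 6.29% in wt, 4.72% in Il2° and 6.39% in Il15°, against 5.77%, 4.10% and 5.59% over all J segments. The libraries differ in depth, and thinned to the smallest library the expected numbers were 47.0, 38.5 and 30.7. Public TRAJ22 clonotypes made 51.7% ± 5.68 of the TRAJ22 repertoire of wt, 35.3% ± 6.23 of that of Il2° and 43.0% ± 3.50 of that of Il15° by UMIs. For TRAJ21 these values were 37.6% ± 6.80, 39.1% ± 0.811 and 31.7% ± 5.22, for TRAJ24 14.2% ± 2.40, 17.1% ± 10.4 and 14.6% ± 5.90, and over all J segments 44.8% ± 3.18, 40.6% ± 2.88 and 39.2% ± 1.61.

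Of the clonotypes by single V names, 6 of TRAJ21 (0.555%), 12 of TRAJ22 (1.24%) and none of 243 of TRAJ24 were found in all 12 libraries, against 174 over all segments (0.844%). They include the 3 leading TRAJ21 clonotypes and, for TRAJ22, TRAV6D-5 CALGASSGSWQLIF, TRAV4D-3 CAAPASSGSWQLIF and TRAV6-5 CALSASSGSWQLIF. With V copies merged, TRAV4-3 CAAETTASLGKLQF of TRAJ24 was also in all 12 libraries. Clonotypes found in 1 library only were 51.8% for TRAJ21, 52.1% for TRAJ22 and 48.6% for TRAJ24, against 52.6% over all segments.

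Over the 12 libraries, the J segments whose share varied most like that of TRAJ22 were TRAJ49 (Pearson r = 0.811) and TRAJ24 (0.665), followed by TRAJ39 (0.638). TRAJ24 was most like TRAJ22, then TRAJ26 (0.649) and TRAJ49 (0.576). TRAJ21 was most like TRAJ18 (0.784), TRAJ4 (0.778) and TRAJ15 (0.550), and had negative values with TRAJ22 (-0.564) and TRAJ24 (-0.593). These coefficients are descriptions across libraries of 3 genotypes, whose shares sum to the whole library.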

How the data were processed

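Newly developed Treg of 12 mice were measured by Tcra sequencing with UMI. The authors kept reads with a quality above 20, used pRESTO to build a consensus for each UMI seen in 2 or more reads, assigned V, CDR3 and J with MiXCR and deposited tables in VDJtools format. The deposited count is a whole number of UMIs, not normalized. The fraction deposited beside it, relative to the library total, was not used. The submitters' processing notes name mm10. Tool versions are not given in the sources used here. Germline J segments came from GENCODE M21 (GRCm38). Amino acids in the text are those of the deposited CDR3.

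In-frame UMIs of J segments, V-J pairs and clonotypes were summed per library and tested with edgeR 4.0.16 (TMM normalization, quasi-likelihood test, at least 5 UMIs in at least 4 of 8 libraries, Benjamini-Hochberg over all features, threshold 0.05), in R 4.3.3. For CDR3 measures the 2-sided Mann-Whitney test was computed exactly (Python 3.11.15, scipy 1.17.1), adjusted over 34 segments. Its smallest p, 0.0286 for 4 against 4, stays above 0.05 after adjustment unless most segments reach it. The edgeR fits were tested on simulated data. Alternatives were DESeq2 1.42.0, no TMM, no filter, all frames, at least 2 UMIs per sequence, each clonotype counted once, merged V copies, CDR3 nucleotides, the replicate number as a block, thinning for public clonotypes and each library left out. The replicate numbers belong to different mice.

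Named were the 5 TRAV partners and 4 clonotypes of each segment with the highest mean share, the 3 clonotypes per segment and comparison with the smallest unadjusted p (of which those with most UMIs or a group at 0 are given), and the neighbouring segments TRAJ23, TRAJ26, TRAJ27, TRAJ18 and TRAJ17. The segments and lists were chosen with earlier results of these data known. Depth was 7293 to 24811 in-frame UMIs per library, so that 3 UMIs are 0.0411% to 0.0121%. Out-of-frame sequences were left out of the comparisons.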

Additional observations from a re-analysis of the deposited data

Results flagged for a closer look

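Of 126 groups of 4 libraries tested for a library far from the other 3 by Dixon's ratio at its 95% critical value, 7 were marked, and chance marks about 1 in 20 groups. The TRAJ24 share of Il2° replicate 3 was 0.598%, below the other Il2° libraries at 0.749% to 0.754%. J bases kept of TRAJ22 in wt replicate 1 were 27.48, with the others at 27.40 to 27.41. TRAJ24 with TRAV4D-4 had 0.0549% in Il2° replicate 4, against 0.00567% to 0.00785%. TRAV4D-3 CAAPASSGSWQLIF had 0.0229% in Il15° replicate 2, against 0.460% to 0.503%. The hydrophobic CDR3 centre of TRAJ24 was 13.5% in Il2° replicate 1, against 2.30% to 3.79%. TRAV segments near the J cluster had 3.02% of TRAJ21 in Il2° replicate 2 (others 0.518% to 0.913%) and 4.28% in Il15° replicate 3 (others 0.705% to 1.07%).

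Out-of-frame or stop-containing sequences, which no comparison of the 3 segments used, were present at 55 UMIs for TRAJ21 (0.632%), 75 for TRAJ22 (0.690%) and 34 for TRAJ24 (1.75%), against 4.37% over all J segments.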

How the results depend on the processing

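Of 1155 values recomputed under an alternative, 973 were counted as unchanged. They kept their direction and their side of the threshold or, for numbers called and public clonotypes, stayed within a fixed fold range. Of 144 recomputed log2 differences of the shares of the 3 segments 2 changed sign. The cause of the changes below was not tested. The call of TRAJ22 between Il15° and Il2° (0.39) ended at 0.10 with each clonotype counted once, and that of TRAJ24 (0.69) at 0.50. In the exact Mann-Whitney test (1.57 and 0.456 points) both had the smallest p that 4 against 4 allow (0.0286, adjusted 0.163). Adjustment over 40 segments brings that p below 0.05 only if most segments reach it, and 7 did. The exact test could therefore hardly have kept either call. The adjusted p ran from 0.00245 to 0.777 for TRAJ22 and from 0.00238 to 0.163 for TRAJ24 over the alternatives, 0.163 being that of the exact test. Between Il2° and wt TRAJ22 was called at -0.35 without TMM, -0.34 without the filter and -0.35 over all frames, and TRAJ24 at -0.55 with DESeq2, -0.55 without the filter and -0.56 over all frames. J segments called between Il2° and wt were 3 with DESeq2, 4 without TMM, 6 without the filter, 5 over all frames and 2 with at least 2 UMIs (0 in the report). Between Il15° and wt 1 was called over all frames, 1 with at least 2 UMIs and 1 with each clonotype once (2 in the report), and between Il15° and Il2° 2 without the filter and 0 with each clonotype once (4 in the report). DESeq2 called 1 pair and 1 clonotype of the 3 segments in Il2° against wt, 1 and 1 in Il15° against wt and 2 and 3 in Il15° against Il2°, where merged V copies gave 1 pair and 1 clonotype and CDR3 nucleotides 1.

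The replicate numbers belong to different mice, and deviations of same-numbered libraries correlated at -0.497 to 0.537, so the block is only a check. With the replicate number as a block the log2 differences between Il15° and Il2° were 0.39 for TRAJ22 and 0.68 for TRAJ24 (edgeR adjusted p = 0.0701 for both), 0 J segments were called there and 0 between Il15° and wt, and 3 pairs were called between Il15° and Il2°. The best match of a library was its own number in 2 of 4 cases for Il15° and Il2°, 0 for Il15° and wt and 1 for Il2° and wt. Sign flips within replicate numbers, which cannot reach the threshold with 4 pairs, gave their smallest possible p for CDR3 length of TRAJ21 (0.137, Il2° minus wt), TRAJ22 (0.0878, Il15° minus wt) and TRAJ24 (0.157, Il15° minus Il2°), and for the hydrophobic centre of TRAJ22 (-2.91, Il15° minus wt) and TRAJ21 (-4.37, Il15° minus Il2°), whose groups overlapped without the block. For the 7 differences of these measures whose groups did not overlap, sign flips must give it, since all 4 paired differences then share a sign. It is no further support for them. These are CDR3 length of TRAJ22 (Il15° minus Il2°), J bases kept of TRAJ21 (Il2° minus wt) and of TRAJ22 (all 3 comparisons), and the hydrophobic centre of TRAJ22 (Il2° minus wt and Il15° minus Il2°).

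With each clonotype counted once, at its longest match, J bases kept differed by 0.000239 (TRAJ21) and 0.000182 (TRAJ22) for Il2° minus wt, by 0.0894 (TRAJ21), 0.416 (TRAJ22) and -0.0338 (TRAJ24) for Il15° minus wt, and by 0.0891, 0.415 and -0.102 for Il15° minus Il2°. CDR3 length of TRAJ21 then differed by 0.00131 for Il15° minus Il2°. The hydrophobic centre differed by 0.624 (TRAJ21) and 2.22 (TRAJ22) points for Il2° minus wt and by -3.86 (TRAJ22) for Il15° minus Il2°, and the share of TRAV near the J cluster by 0.154, 0.646 and 0.492 points (TRAJ24, in Il2° minus wt, Il15° minus wt and Il15° minus Il2°) and 0.980 (TRAJ21, Il15° minus wt). With at least 2 UMIs, J bases kept of TRAJ22 differed by -0.298, 0.361 and 0.658 in the same order. Those of TRAJ21 differed by -0.512 for Il15° minus Il2°, and CDR3 length of TRAJ22 by 0.169. The TRAJ22 groups overlapped in each of these, and the TRAJ21 groups did not. Public clonotypes of the 3 segments became 35 in Il2° and 22 in Il15° at 2 UMIs, 47.0 in wt and 30.7 in Il15° after thinning, and 172, 122 and 138 when 3 of 4 libraries sufficed.

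Ranges with each library left out in turn were as follows. The log2 differences of the share ran from 0.20 to 0.28 (TRAJ21, Il2° minus wt), -0.48 to -0.24 (TRAJ22, Il2° minus wt), -0.57 to -0.47 (TRAJ24, Il2° minus wt), -0.0124 to 0.158 (TRAJ21, Il15° minus wt), -0.0503 to 0.220 (TRAJ22, Il15° minus wt), 0.34 to 0.54 (TRAJ22, Il15° minus Il2°) and 0.61 to 0.84 (TRAJ24, Il15° minus Il2°). The number called ran from 0 to 6 (all J segments, Il2° minus wt), 1 to 3 (all J segments, Il15° minus wt), 0 to 4 (all J segments, Il15° minus Il2°), 0 to 3 (V-J pairs of the 3 segments, Il15° minus Il2°) and 0 to 1 (clonotypes of the 3 segments, Il15° minus Il2°). The CDR3 length differences ran from 0.110 to 0.182 (TRAJ21, Il2° minus wt), -0.123 to -0.0750 (TRAJ22, Il2° minus wt), -0.197 to -0.116 (TRAJ24, Il2° minus wt), 0.0629 to 0.105 (TRAJ22, Il15° minus wt), -0.0298 to 0.0349 (TRAJ24, Il15° minus wt) and 0.126 to 0.208 (TRAJ24, Il15° minus Il2°). The differences in J bases kept ran from -0.131 to 0.00597 (TRAJ21, Il15° minus wt), -0.348 to -0.212 (TRAJ21, Il15° minus Il2°) and -0.107 to 0.349 (TRAJ24, Il15° minus Il2°). The differences in TRAV near the J cluster, in points, ran from -0.234 to 0.600 (TRAJ21, Il2° minus wt), 0.220 to 0.539 (TRAJ22, Il2° minus wt), -0.332 to 0.649 (TRAJ24, Il2° minus wt), -0.555 to 0.387 (TRAJ24, Il15° minus wt), -0.338 to 1.09 (TRAJ21, Il15° minus Il2°), -0.622 to -0.303 (TRAJ22, Il15° minus Il2°) and -0.551 to 0.0665 (TRAJ24, Il15° minus Il2°). The differences in the hydrophobic centre, in points, ran from -1.83 to 1.73 (TRAJ21, Il2° minus wt), -3.83 to -2.10 (TRAJ22, Il15° minus wt) and -0.214 to 1.26 (TRAJ24, Il15° minus wt).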
